A study of Mus musculus with 8 samples.

Results

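The 43 genes described here encode lysosomal proteins and factors that act on their genes: 11 cathepsins, 14 other hydrolases and their cofactors, 6 proteins of the lysosomal membrane, 9 subunits of the proton pump and the 3 transcription factors Tfeb, Tfe3 and Mitf. They were taken by gene symbol from the 35275 genes of the deposited count table, and all 43 symbols were found. Messenger RNA was sequenced in a mouse epicardial cell line, the cells that cover the surface of the heart, in 8 libraries. The Hdac3 knockout cells (KO, 4 libraries) had been given CRISPR/Cas9 with a guide RNA against Hdac3, which removes acetyl groups from histones as part of a corepressor complex, by lentivirus, and their controls (EV, 4 libraries) an empty lentiviral vector. Both groups were grown in high-glucose medium with fetal bovine serum. Neither the age nor the strain of the source animals, nor whether the KO cells were a clone or a mixed population, is given in the sources used here.

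The lysosome is the compartment in which cells break down proteins, sugar chains and lipids that arrive by endocytosis or autophagy. Its enzymes work in acid, which a proton pump in its membrane, the V-ATPase, maintains at the cost of ATP. Tfeb, Tfe3 and Mitf are related basic helix-loop-helix factors that bind E-box sequences in the promoters of many lysosomal genes, and the kinase complex mTORC1 on the lysosome holds them in the cytoplasm when nutrients are plentiful.

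Libraries held 19173812 to 24564892 counts in KO and 18063745 to 22289125 counts in EV, and 3 counts, taken as the limit of detection, corresponded to between 0.122 and 0.166 CPM, counts scaled to a library of 1e+06. Hdac3 itself was at 63.2, 56.9, 63.9 and 62.6 CPM in KO replicates 1 to 4 and at 60.3, 61.4, 63.97 and 61.7 CPM in EV replicates 1 to 4 (log2 fold change −0.005, edgeR adjusted p = 0.956), so its transcript level does not check the labels. The title of KO replicate 1 says KO while its characteristics name the empty vector. Without that library, 14 of the 40 tested members rose in edgeR (35%), against 9.56% of all genes tested in that fit. Of 14 epicardial and mesothelial markers all 14 had counts, with Upk3b at 613 FPKM in KO and 805 FPKM in EV and Wt1 at 83.7 and 112 FPKM, while Aldh1a2, the retinoic acid synthase of the epicardium, was at 0.109 and 0.183 FPKM in KO and EV. Of the 13 of these markers that could be tested, 4 rose and 4 fell, Upk3b and Wt1 among those that fell. Log2 fold changes in this list ran from −0.74 to 1.66, with a median of 0.028. Of all tested genes, 12.6% rose and 13.4% fell. FPKM is the authors' deposited count per kilobase of gene and per 1e+06 counts. Of 14 liver markers, all 14 had counts, 8 were tested, 4 rose and 1 fell. Alb rose, at 8.98 CPM in KO and 2.61 CPM in EV. The other 13 summed to 11.3 to 18.8 CPM in KO libraries and 10.5 to 11.7 CPM in EV libraries, with KO replicates 2 and 3 highest. Without these 2 libraries, 14 of the 40 tested members also rose in edgeR (35%), against 6.69% of all genes tested in that fit.

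Many lysosomal transcripts rose in KO cells. Of the 43 members, 40 had enough counts to be tested, 19 of these rose (the threshold was an adjusted p of 0.05), against 12.6% of all 12801 tested genes (26.0% changed in either direction), and 0 of the 40 fell, against 13.4% of all tested genes. The members were chosen with earlier results of these data known, so these shares are descriptions. At an unadjusted p under 0.05, 2 members were lower, Tfeb and Ctsh, in edgeR, DESeq2 and limma-voom alike, and none passed the adjusted threshold in any of these 3 tools. The changes were modest: the 19 rises ran from a fold of 1.09 to a fold of 1.66, and 8 of them had a log2 fold change of at least 0.25. The median log2 fold change of the 40 tested members was 0.13, beside 0.005 for all tested genes, and 34 members had a positive value. Since genes with many counts pass a test more easily, the same shares were taken among genes with a mean of at least 50 CPM. There 16 of 32 members rose, against 19.7% of 4344 genes, and 0 of 32 fell, against 14.3% (edgeR; also 0 at an unadjusted p under 0.05). In 19 of the 40 tested members every KO library stood above every EV library, against 12.6% of all tested genes, or 18.5% of those with a mean of at least 50 CPM, and in 1, Ctsh, every KO library stood below, against 13.9%.

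Together the 43 genes made up 1.53 ± 0.0337% of the summed FPKM in KO libraries and 1.35 ± 0.0301% in EV libraries (SD, n = 4 each). The share lay between 1.51% (KO replicate 2) and 1.58% (KO replicate 3) in KO and between 1.30% (EV replicate 1) and 1.37% (EV replicate 3) in EV, and the groups did not overlap. The 5 most abundant members, Cd63, Ctsl, Psap, Lamp1 and Ctsd, held much of it. They made up 52.9% to 53.4% of the members' summed FPKM in KO libraries and 49.5% to 50.8% in EV libraries. In bulk RNA, a higher level in each cell and a larger share of cells with a high level cannot be told apart. Among the KO libraries, replicate 3 had the highest CPM in 25 of the 40 tested members, against 26.3% of all tested genes. KO replicate 2 had the highest in 4 members, against 30.6% of all tested genes. It had the lowest in 23 members, and the share of all genes was not taken for the lowest library. Among the EV libraries, replicate 3 had the highest CPM in 19 of the 40, against 19.3% of all tested genes.

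How many members passed changed when no scaling factor was used between libraries. RLE and upper-quartile scaling each gave 19 members higher and 0 lower, as the main fit did, beside 1608 and 1594 genes higher. The scaling factors used here (TMM) lay between 0.98 and 0.987 in KO and between 1.01 and 1.03 in EV. With library totals alone, 12 members rose and 2 fell (Ctsh and Tfeb), beside 1039 genes higher and 2414 lower in all, where TMM gave 1613 higher and 1711 lower. The difference between the median of the members and that of all genes was similar in both, since library totals gave 0.08 for the members and −0.046 for all genes on the log2 scale. The 9 members Ctsb, Ctsl, Lamp1, Lamp2, Cd63, Cd68, Psap, Atp6v0d1 and Atp6v1b2 passed as higher in KO under each of the 20 alternatives run.

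**Figure D1:**
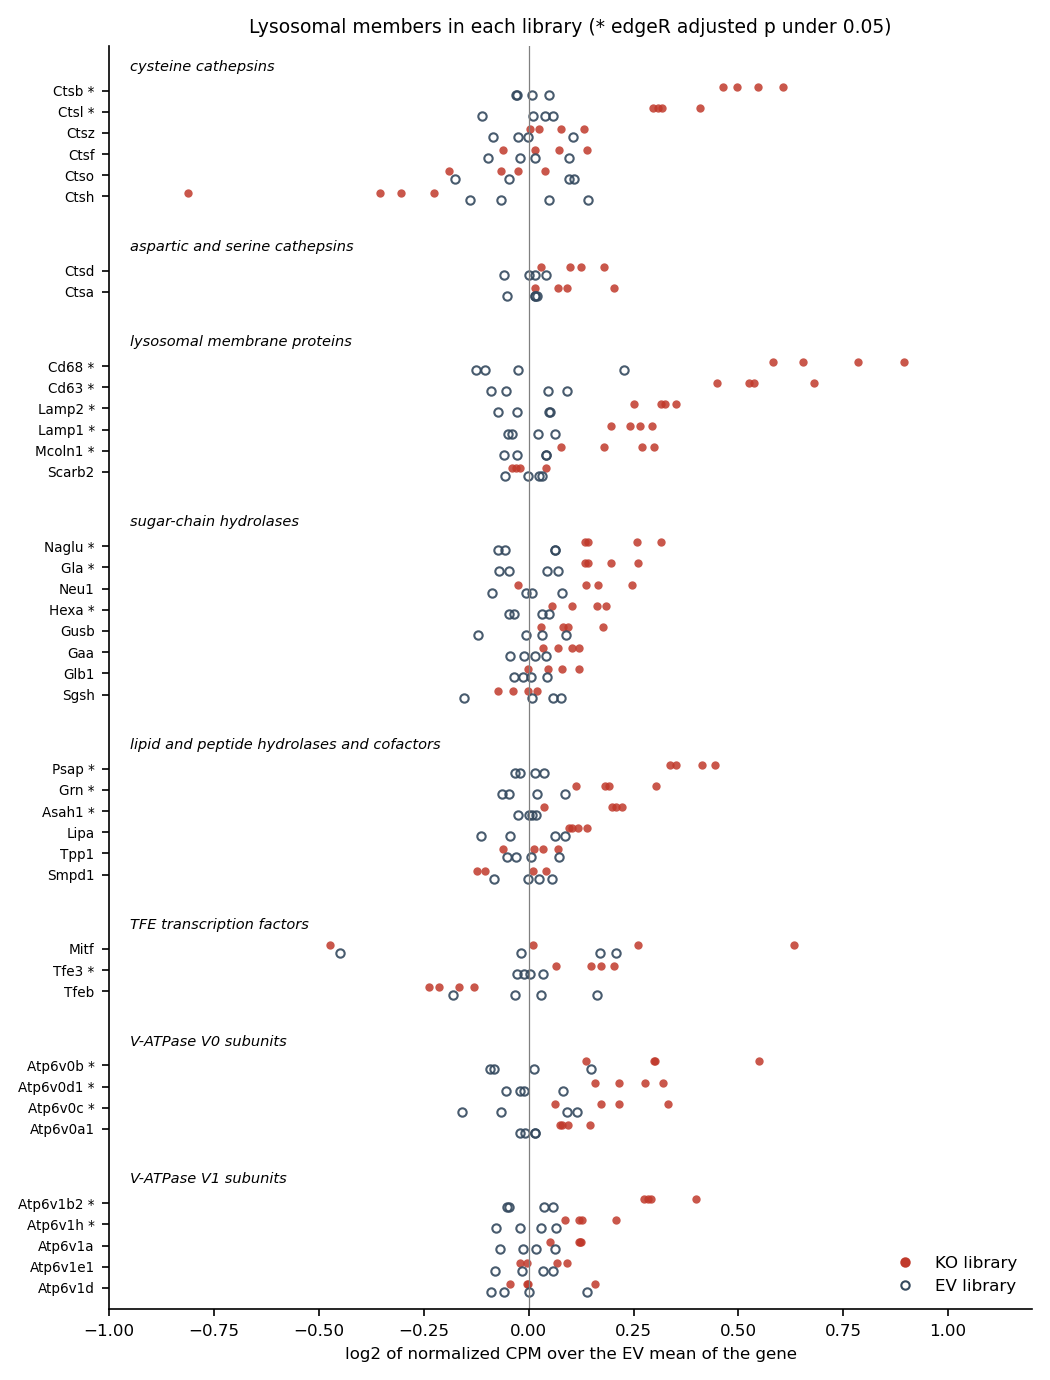
Normalized CPM of the 40 tested members in each library, as log2 of the value over the EV mean of the same gene (filled points: KO libraries; open points: EV libraries; 4 each). Ctsb, Cd63 and Cd68 stand apart on the right, Ctsh is the sole member with all KO libraries on the left of all EV libraries, and most of the others shift by less than 0.25.

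The promoters of the members were searched for E-box motifs, which the rule did not use. These motifs were picked as those of the TFE factors, which bind E-boxes in promoters of many lysosomal genes. A higher share among lysosomal members than among all genes could therefore be foreseen and is not a separate result. RefSeq promoter windows (GRCm38.p6, 250 bases before to 50 after each start) were found for 38 of the 43 members. The E-box core CACGTG, searched on both strands, occurred in a window of 14 of these 38 (36.8%), against 8.09% of all 27025 genes with a window and 13.7% of the 3351 with a mean of at least 50 CPM here. The longer TCACGTG, which contains that core and is bound by the TFE factors, occurred in 12 members (31.6%), against 4.29% and 8.53%. TCATGTG, known from promoters bound by Mitf, occurred in 7 members (18.4%), against 4.31% and 2.54%. The core stood in both kinds of member: 7 of the 15 that rose and have a window carried it, as did 7 of the 20 tested members that did not pass and have a window. A match describes the letters and does not show binding.

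The 100 bases before the RefSeq start, which can differ from the start of the deposited gene span, are printed for members chosen to show both kinds, with CACGTG in capitals: Lamp1 (chr8:13159061-13159160, plus strand), Mcoln1 (chr8:3500419-3500518, plus strand), Naglu (chr11:101069994-101070093, plus strand) and Atp6v0b (chr4:117887330-117887429, minus strand), which rose and carry the core, Ctsd (chr7:142387828-142387927, minus strand), which carries it and did not pass the test, and Cd63 (chr10:128909245-128909344, plus strand), which rose and has no match in its window. They read 5′ to 3′ on the strand of the gene, from RefSeq, build GRCm38.p6. Lamp1 holds 4 copies in this stretch, Mcoln1 and Atp6v0b hold 2 each, and Naglu and Ctsd hold 1 each.
Lamp1: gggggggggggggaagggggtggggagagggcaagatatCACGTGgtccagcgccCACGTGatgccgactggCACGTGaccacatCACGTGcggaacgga
Mcoln1: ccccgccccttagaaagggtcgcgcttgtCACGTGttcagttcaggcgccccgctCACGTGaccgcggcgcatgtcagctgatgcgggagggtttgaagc
Naglu: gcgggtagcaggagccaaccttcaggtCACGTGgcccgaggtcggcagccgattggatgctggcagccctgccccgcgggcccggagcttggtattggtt
Atp6v0b: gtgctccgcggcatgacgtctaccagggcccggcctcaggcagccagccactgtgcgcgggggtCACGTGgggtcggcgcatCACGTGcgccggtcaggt
Ctsd: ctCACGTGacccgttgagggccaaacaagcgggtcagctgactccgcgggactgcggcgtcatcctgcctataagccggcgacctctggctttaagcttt
Cd63: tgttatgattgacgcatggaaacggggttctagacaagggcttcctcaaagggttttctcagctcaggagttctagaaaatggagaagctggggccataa

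Among the cathepsins, the cysteine proteases Ctsb and Ctsl rose and the others did not pass the test. The share of all tested genes that rose was 12.6%. Ctsb (cathepsin B, ENSMUSG00000021939, mm10 chromosome 14, 63122462 to 63145919) both trims peptides from their ends and cuts proteins internally. Ctsb stood at 1496, 1412, 1559 and 1444 CPM in KO replicates 1 to 4, against 1029, 1003, 1059 and 1004 CPM in EV replicates 1 to 4. Every KO library was above every EV library, and the gene rose 1.44-fold (log2 fold change 0.53, SE 0.0433, edgeR adjusted p = 2.77e-08). Ctsl (cathepsin L, ENSMUSG00000021477, chromosome 13, 64363214 to 64370306) is an endopeptidase of lysosomes that is also secreted. Ctsl stood at 1514, 1504, 1611 and 1492 CPM in KO replicates 1 to 4, against 1223, 1263, 1248 and 1124 CPM in EV replicates 1 to 4. Its groups did not overlap either, and EV replicate 4 was the lowest library (log2 fold change 0.33, SE 0.0458, edgeR adjusted p = 2.04e-05). Ctsb overlaps Fdft1 on the opposite strand by 767 bases, and all counts of Fdft1 came to 5.69% of those of Ctsb.

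The other 6 tested cathepsins did not pass. Ctsd, the main aspartic protease of lysosomes, was the fifth most abundant member at 447 ± 18.3 FPKM in KO and 429 ± 11.7 FPKM in EV (SD, n = 4 each). Ctsd stood at 979, 915, 1017 and 961 CPM in KO replicates 1 to 4, against 898, 906, 923 and 862 CPM in EV replicates 1 to 4. KO replicate 2 lay among the EV libraries, and the difference did not pass (log2 fold change 0.11, SE 0.044, edgeR adjusted p = 0.076), although it did in DESeq2 (adjusted p = 0.0464) and without KO replicate 2 (edgeR adjusted p = 0.0292). Ctsa, the serine carboxypeptidase that also protects the galactosidase Glb1 and the sialidase Neu1 from degradation, was at 636 ± 35.4 CPM in KO and 595 ± 13.8 CPM in EV (log2 fold change 0.10, edgeR adjusted p = 0.139). Ctsz, a carboxypeptidase, was at 0.06, Ctsf at 0.043 and Ctso at −0.056 on the log2 scale, with adjusted p-values of 0.395, 0.607 and 0.649 in edgeR.

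Ctsh, an aminopeptidase that also processes surfactant proteins in lung, had the lowest log2 fold change of the members. Ctsh stood at 3.50, 2.55, 3.62 and 3.82 CPM in KO replicates 1 to 4, against 4.27, 4.06, 4.63 and 4.93 CPM in EV replicates 1 to 4. All 4 KO libraries were below all 4 EV libraries, KO replicate 2 furthest, but the difference missed the threshold (log2 fold change −0.40, SE 0.155, edgeR adjusted p = 0.0636). It passed with library totals alone (adjusted p = 0.0355), in the FPKM values with a filter (limma adjusted p = 0.0363 with a pseudocount of 1 and 0.0418 with 0.1) and with the replicate number as a block (adjusted p = 0.0471), over a range of adjusted p from 0.0355 to 0.323 in the 20 alternatives. These levels are low, at 1.21 FPKM in KO and 1.66 FPKM in EV, against 762 and 627 FPKM for Ctsl.

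3 cathepsins were at the limit of detection. Ctsc, which activates serine proteases of immune cells, held 0, 1, 4 and 1 counts in KO replicates 1 to 4 and 1, 0, 0 and 1 in EV replicates 1 to 4. Ctsk, the collagen-degrading cathepsin of osteoclasts, held 2, 1, 0 and 2 counts in KO and 0, 3, 0 and 1 in EV, and Ctss, a cathepsin of antigen-presenting cells, held 1, 1, 0 and 0 in KO and 0, 0, 0 and 0 in EV. No difference was detectable at this depth in any of the 3. Of 12 further cathepsins looked up, 8 had 0 counts in all libraries, and Ctsw, a cathepsin of lymphocytes, was the most abundant with 71 counts in all 8 libraries together.

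Of the 6 lysosomal membrane proteins, 5 rose, against 12.6% of all tested genes. These 6 had the highest median log2 fold change of the 8 roles, 0.28. Cd63 (ENSMUSG00000025351, chromosome 10, 128908919 to 128912816) is a tetraspanin of late endosomes, lysosomes and secreted vesicles and was the most abundant member, at 857 ± 56.4 FPKM in KO and 606 ± 35.5 FPKM in EV (SD, n = 4 each). Cd63 stood at 811, 763, 896 and 805 CPM in KO replicates 1 to 4, against 538, 577, 596 and 526 CPM in EV replicates 1 to 4. All KO libraries were above all EV libraries, KO replicate 3 furthest, and the gene rose 1.46-fold (log2 fold change 0.55, SE 0.0535, edgeR adjusted p = 2.55e-07). Lamp1 and Lamp2 are the heavily glycosylated proteins that line the inner face of the lysosomal membrane, and Lamp2 also serves autophagy. Lamp1 stood at 1112, 1061, 1135 and 1094 CPM in KO replicates 1 to 4, against 895, 900.2, 939.6 and 967 CPM in EV replicates 1 to 4. Lamp2 stood at 971, 929, 996 and 978 CPM in KO replicates 1 to 4, against 741, 765, 808 and 807 CPM in EV replicates 1 to 4. The groups of both were apart. Lamp1 (ENSMUSG00000031447, chromosome 8, 13159135 to 13175338) rose by 0.25 on the log2 scale (SE 0.0428, edgeR adjusted p = 0.000226) and Lamp2 (ENSMUSG00000016534, chromosome X, 38401357 to 38456454) by 0.31 (SE 0.0439, edgeR adjusted p = 2.75e-05).

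Cd68 had the largest fold of the members and is also known as a marker of macrophages. Cd68 stood at 8.17, 8.82, 7.46 and 7.11 CPM in KO replicates 1 to 4, against 4.66, 4.41, 4.35 and 5.55 CPM in EV replicates 1 to 4. The groups were apart (log2 fold change 0.73, SE 0.126, edgeR adjusted p = 0.000233), at 6.30 FPKM in KO and 3.92 FPKM in EV, far below Cd63. Macrophage markers were at or near 0 except Cd14: of 18 macrophage markers, 13 had counts and 5 were at 0 in all libraries, Adgre1 (listed as Emr1), Tyrobp, Laptm5, Fcgr1 and Spi1. Ptprc held 2 counts in all libraries together. Without Cd14, which was at 22.8 CPM in KO and 27.7 CPM in EV and fell (log2 fold change −0.28, edgeR adjusted p = 0.0226), the other 17 summed to 5.73 to 6.90 CPM in KO libraries and 3.51 to 5.51 CPM in EV libraries. Of these, Cd53, a tetraspanin of leukocytes, rose (log2 fold change 1.15, edgeR adjusted p = 0.00109) at 2.44 CPM in KO and 1.09 CPM in EV. The part of these low levels in the Cd68 result was not tested.

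Mcoln1, the calcium channel of the lysosome, rose (log2 fold change 0.21, SE 0.0621, edgeR adjusted p = 0.0184), standing at 41.7 ± 2.83 CPM in KO and 36.1 ± 1.26 CPM in EV (SD, n = 4 each), and lost the call with library totals alone (edgeR adjusted p = 0.069), in the FPKM values and without KO replicate 1 (edgeR adjusted p = 0.073) or KO replicate 3 (edgeR adjusted p = 0.0599). Scarb2 carries the glucocerebrosidase to the lysosome. Scarb2 stood at 186, 197, 187 and 188 CPM in KO replicates 1 to 4, against 194, 184, 195 and 191 CPM in EV replicates 1 to 4 (log2 fold change −0.012, SE 0.0425, edgeR adjusted p = 0.866). Its groups overlapped. Of 22 further genes tested from a list of lysosomal membrane proteins, 4 rose and 1 fell, with a median of 0.06. Of all tested genes, 12.6% rose and 13.4% fell. Npc2, a soluble protein that was counted in this list, hands cholesterol on inside the lysosome. Npc2 rose by 0.33 (SE 0.0546), the chloride transporter Clcn7 by 0.32 (SE 0.0509) and Mfsd1 by 0.22 (SE 0.0454). The endolysosomal channel Tpcn1 fell by 0.34 on the log2 scale (SE 0.0499, edgeR adjusted p = 4.85e-05).

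Among the 6 hydrolases and cofactors that act on lipids and peptides, Psap, Grn and Asah1 rose, against 12.6% of all tested genes. Psap (ENSMUSG00000004207, chromosome 10, 60277627 to 60302597) encodes prosaposin, the precursor of the saposins that lift lipids out of membranes for their hydrolases. Psap stood at 1771, 1697, 1811 and 1682 CPM in KO replicates 1 to 4, against 1365, 1301, 1345 and 1313 CPM in EV replicates 1 to 4. The groups were apart, and Psap rose 1.31-fold (log2 fold change 0.39, SE 0.0413, edgeR adjusted p = 8.98e-07). Grn, progranulin, a secreted and lysosomal protein, stood at 505 ± 28.1 CPM in KO and 439.8 ± 21.2 CPM in EV (SD, n = 4 each, log2 fold change 0.20, SE 0.0492, edgeR adjusted p = 0.0054). Asah1, the acid ceramidase, was at 201 ± 11.8 CPM in KO and 179 ± 2.30 CPM in EV (log2 fold change 0.17, SE 0.0468, edgeR adjusted p = 0.0116). In both genes the groups were apart. Asah1 lost its call with library totals alone (edgeR adjusted p = 0.0672) and in the FPKM values. Grn overlaps Fam171a2 on the opposite strand by 68 bases. All counts of Fam171a2 came to 10.4% of those of Grn. With the strand setting unknown, the reads of the 2 genes cannot be told apart where they overlap. Smpd1, the acid sphingomyelinase that makes ceramide, was at −0.04, Tpp1, a tripeptidyl peptidase, at 0.014 and Lipa, the acid lipase that frees cholesterol from its esters, at 0.11 on the log2 scale, with edgeR adjusted p-values of 0.634, 0.848 and 0.0996. In Lipa every KO library was above every EV library, but the difference passed in 1 of the 20 alternatives, without EV replicate 4 (edgeR adjusted p = 0.0274).

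Of the 8 hydrolases of sugar chains, Naglu, Gla and Hexa rose, with folds of 1.16, 1.14 and 1.09, and the median log2 fold change was 0.11. Among all tested genes 12.6% rose, and among those with a mean of at least 50 CPM 19.7%. Naglu, which removes acetylglucosamine from heparan sulfate, was at 161 ± 10.01 CPM in KO and 139 ± 7.11 CPM in EV (log2 fold change 0.21, SE 0.0519, edgeR adjusted p = 0.00453). Gla, alpha-galactosidase, and Hexa, the alpha chain of beta-hexosaminidase, had log2 fold changes of 0.18 (SE 0.0518, edgeR adjusted p = 0.013) and 0.13 (SE 0.0444, edgeR adjusted p = 0.0406). With library totals alone 1 of the 3 passed, Naglu. With 1 library left out, Gla lost its call without KO replicate 3 (edgeR adjusted p = 0.054), and Hexa without KO replicate 1 or 3 or EV replicate 2, 3 or 4 (edgeR adjusted p up to 0.126). Gaa, which breaks down glycogen, Glb1, beta-galactosidase, Gusb, beta-glucuronidase, and Neu1, the sialidase, were between 0.061 and 0.14 on the log2 scale and did not pass (edgeR adjusted p from 0.122 to 0.332), although Neu1 passed as higher without KO replicate 2 (edgeR adjusted p = 0.0301). Sgsh, which acts on heparan sulfate beside Naglu, was at −0.022 (edgeR adjusted p = 0.835).

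Of 32 other lysosomal hydrolases and cofactors, 10 rose, 1 fell and 21 did not pass, with a median log2 fold change of 0.08. Of all tested genes, 12.6% rose and 13.4% fell. Pla2g15, a lysosomal phospholipase, rose most of those named, to 31.7 CPM in KO against 21.99 CPM in EV (log2 fold change 0.53, SE 0.0737, edgeR adjusted p = 2.4e-05). Dpp7, a dipeptidyl peptidase, rose by 0.38, Arsa, the sulfatase of sulfatides, by 0.33, and Man2b1, the lysosomal alpha-mannosidase, by 0.21 on the log2 scale. Galc, the galactosylceramidase, was the gene that fell (log2 fold change −0.20, edgeR adjusted p = 0.0333), and it lost that call when KO replicate 1, KO replicate 4 or EV replicate 3 was left out, without KO replicates 2 and 3 and in the unfiltered FPKM values. Library totals alone and the filtered FPKM values gave 2 falls in this list. Of 8 cystatins, which inhibit cathepsins, 3 were tested, with log2 fold changes from −0.49 to 0.36, and 1 rose and 0 fell. The one that rose was Cstb, an inhibitor of cathepsins in the cytosol (log2 fold change 0.36, SE 0.0484, edgeR adjusted p = 1.57e-05). Cst3, a secreted inhibitor, was at 0.11 (adjusted p = 0.188 in edgeR).

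**Figure D2:**
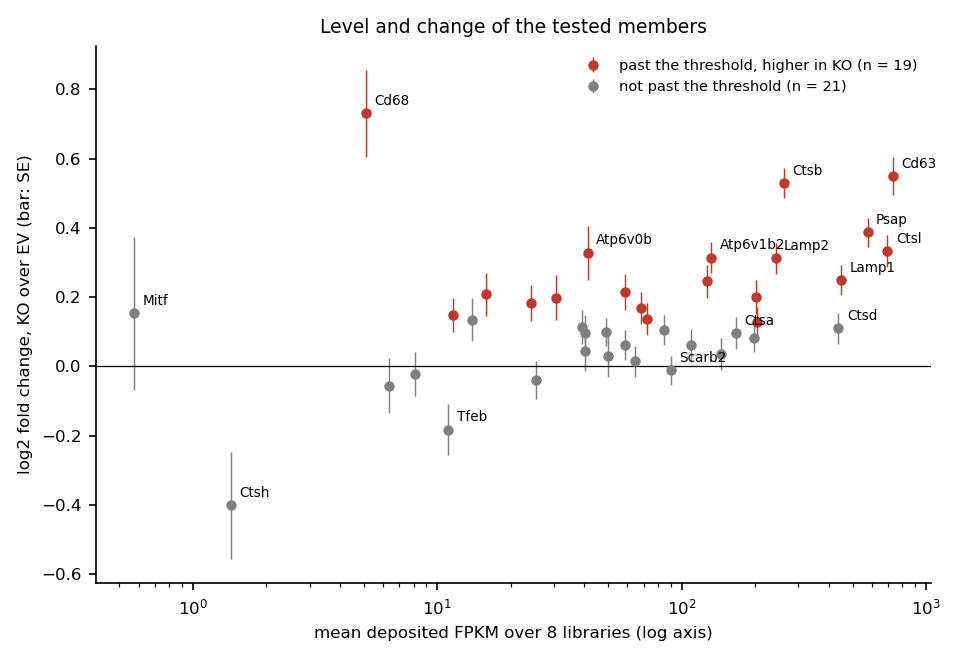
Log2 fold change (KO over EV, bars: SE) of the 40 tested members against their mean deposited FPKM on a log axis, red where the edgeR adjusted p was under 0.05. Cd63, Ctsl and Psap, all above 500 FPKM, rose, Ctsd at a similar level did not pass, and Mitf, Ctsh and Cd68 at the low end have the widest bars.

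The proton pump consists of a V1 sector, which uses ATP on the cytosolic side, and a V0 sector, which carries protons across the membrane. Of the 4 V0 members, Atp6v0b, Atp6v0c and Atp6v0d1 rose, and of the 5 V1 members, Atp6v1b2 and Atp6v1h. The share of all tested genes that rose was 12.6%. Atp6v1b2 (ENSMUSG00000006273, chromosome 8, 69088646 to 69113711) is the broadly expressed B subunit of the ATP-binding ring. Atp6v1b2 stood at 403, 408, 439.6 and 406 CPM in KO replicates 1 to 4, against 322, 342, 347 and 322 CPM in EV replicates 1 to 4. The groups were apart, with KO replicate 3 highest (log2 fold change 0.31, SE 0.0453, edgeR adjusted p = 3.56e-05). Its partner in that ring, Atp6v1a, did not pass at 371 ± 9.08 CPM in KO and 345 ± 13.2 CPM in EV (log2 fold change 0.10, SE 0.0431, edgeR adjusted p = 0.0833). Atp6v1h, a regulatory subunit, rose by a small margin (log2 fold change 0.14, SE 0.0463, edgeR adjusted p = 0.0373). It lost the call in 11 of the 20 alternatives, among them library totals alone (edgeR adjusted p = 0.199) and the fits without KO replicate 1, 3 or 4 or EV replicate 1 or 3 (edgeR adjusted p from 0.0615 to 0.128). The stalk subunits Atp6v1d and Atp6v1e1 were at 0.03 and 0.035 on the log2 scale (edgeR adjusted p = 0.758 and 0.615), values whose sign turned to negative with library totals alone and in the FPKM fits.

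In the V0 sector, Atp6v0d1, which couples the sectors, was at 225 ± 11.04 CPM in KO and 189.7 ± 7.73 CPM in EV (SD, n = 4 each, log2 fold change 0.25, SE 0.0472, edgeR adjusted p = 0.000685). Atp6v0b and Atp6v0c encode subunits of the proton-carrying ring. Atp6v0b stood at 53.8, 45.2, 45.3 and 40.4 CPM in KO replicates 1 to 4, against 40.8, 34.7, 34.5 and 37.1 CPM in EV replicates 1 to 4. KO replicate 1 was the highest library, and KO replicate 4 lay just below EV replicate 1, so the groups overlapped at that point (log2 fold change 0.33, SE 0.0784, edgeR adjusted p = 0.00422). Atp6v0c stood at 82.4, 76.3, 91.9 and 84.8 CPM in KO replicates 1 to 4, against 65.5, 77.9, 79.1 and 69.8 CPM in EV replicates 1 to 4. KO replicate 2 lay within the EV range, and the call (log2 fold change 0.20, SE 0.0657, edgeR adjusted p = 0.0325) was lost when KO replicate 1, 3 or 4 or EV replicate 1 was left out (edgeR adjusted p from 0.0552 to 0.128). It was lost in 9 of the 20 alternatives, also with library totals alone (edgeR adjusted p = 0.109), without KO replicates 2 and 3 (edgeR adjusted p = 0.103) and in the FPKM values (limma adjusted p up to 0.264). Atp6v0a1, the a subunit that lines the path of the protons, was higher in all KO libraries than in any EV library, at 211 ± 4.79 CPM in KO and 197 ± 2.43 CPM in EV, but did not pass (log2 fold change 0.10, SE 0.0408, edgeR adjusted p = 0.0849).

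The pump's other subunits and accessory proteins, 16 in all, were taken as a list. Of 12 tested, Atp6v1g1, Atp6ap2 and Atp6ap1 rose, with log2 fold changes of 0.45 (SE 0.0739), 0.29 (SE 0.0492) and 0.20 (SE 0.0457), and the other 9 did not pass (median of the 12 0.10). Of all tested genes, 12.6% rose. Library totals alone and the filtered FPKM values gave 1 fall among the 12. Atp6ap1 and Atp6ap2 are accessory proteins of the assembled pump. Atp6v1b1, the B subunit of kidney and inner ear, was at 0.211 FPKM in KO and 0.275 FPKM in EV, against 144 and 120.0 FPKM for Atp6v1b2. Atp6v1c2, Atp6v1e2 and Atp6v1g3 had 0 counts in every library, and Atp6v0d2, the d subunit of osteoclasts, held 3 in all. Of the a subunits, Atp6v0a1 was the most abundant per length at 49.7 FPKM in KO and 48.1 FPKM in EV, followed by Atp6v0a2 (19.5 and 20.6 FPKM), Tcirg1 (16.8 and 16.1 FPKM) and Atp6v0a4 (2.85 and 3.52 FPKM), each step larger than the SD of either neighbour in both groups.

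**Figure D3:**
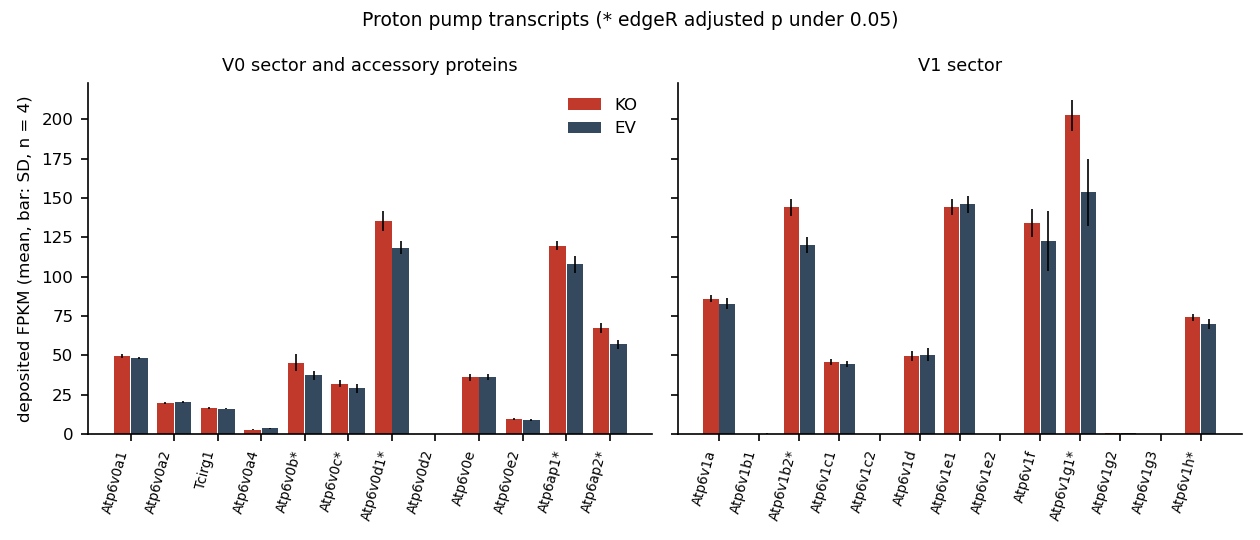
Deposited FPKM of 25 proton pump transcripts (mean of 4 libraries, bars: SD, red KO on the left of each pair and dark EV on the right, stars: edgeR adjusted p under 0.05). Atp6v0d1, Atp6v1b2, Atp6v1e1, Atp6v1f, Atp6v1g1 and Atp6ap1 each exceed 100 FPKM in both groups, and the paralogs Atp6v0d2, Atp6v1c2, Atp6v1e2 and Atp6v1g3 are at or near 0.

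The 3 TFE factors did not move together. Tfe3 (ENSMUSG00000000134, chromosome X, 7762560 to 7775202) rose slightly, and Tfeb (ENSMUSG00000023990, chromosome 17, 47737030 to 47792419) did not pass. Tfe3 stood at 80.4, 77.4, 78.6 and 72.99 CPM in KO replicates 1 to 4, against 71.5, 69.3, 69.99 and 68.5 CPM in EV replicates 1 to 4. Tfeb stood at 23.8, 23.5, 24.7 and 25.3 CPM in KO replicates 1 to 4, against 30.96, 27.01, 28.2 and 24.4 CPM in EV replicates 1 to 4. All KO libraries were above all EV libraries for Tfe3 (log2 fold change 0.15, SE 0.0489, edgeR adjusted p = 0.0329), while for Tfeb EV replicate 4 lay within the KO range (log2 fold change −0.18, SE 0.0746, edgeR adjusted p = 0.08). Both depended on the setting. Tfe3 lost its call in 11 of the 20 alternatives, among them the fits without KO replicate 1, 2 or 3 or EV replicate 2 or 3 (edgeR adjusted p from 0.0513 to 0.111) and library totals alone (edgeR adjusted p = 0.159). Tfeb passed as lower there (edgeR adjusted p = 0.0237), in the filtered FPKM values and without EV replicate 4 (edgeR adjusted p = 0.0154). Per length both stood at similar levels, Tfe3 at 12.00 FPKM in KO and 11.2 FPKM in EV and Tfeb at 10.2 and 12.00 FPKM.

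Mitf, the factor of melanocytes and osteoclasts, was far lower at 0.598 FPKM in KO and 0.554 FPKM in EV. Mitf stood at 3.18, 4.11, 2.67 and 1.91 CPM in KO replicates 1 to 4, against 3.07, 2.62, 1.94 and 2.99 CPM in EV replicates 1 to 4. The groups overlapped (log2 fold change 0.15, SE 0.221, edgeR adjusted p = 0.651). Melanocyte markers were near 0: Tyr, Dct, Tyrp1 and Oca2 had 0 counts in every library, and the 8 markers summed to 2.08 to 3.34 CPM in KO libraries and 1.75 to 3.07 CPM in EV libraries. Of 6 osteoclast markers, Dcstamp and Calcr had 0 counts, Acp5 fell (log2 fold change −0.81, edgeR adjusted p = 0.000164) and Tnfrsf11a rose at 1.37 CPM in KO and 0.544 CPM in EV (edgeR adjusted p = 0.00536), and the 6 summed to 5.86 to 7.48 CPM in KO libraries and 8.65 to 10.4 CPM in EV libraries. Tfec, the fourth TFE family gene, had 0 counts in all 8 libraries, so its share of a library was below the level of 3 counts given above. Of 8 other factors that bind or act through E-boxes and their relatives, Usf1 rose (log2 fold change 0.20, edgeR adjusted p = 0.00484), Mxi1 fell (−0.23, edgeR adjusted p = 0.00817) and Myc was at 18.4 CPM in KO and 18.5 CPM in EV (edgeR adjusted p = 0.98). These counts are near the shares of all tested genes, of which 12.6% rose and 13.4% fell. Without KO replicates 2 and 3, Usf1 and Mxi1 lost their calls (edgeR adjusted p = 0.0979 and 0.114).

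Genes that deliver enzymes to the lysosome, regulate it or feed it through autophagy were counted in the same way. Beside these counts, 12.6% of all tested genes rose and 13.4% fell. Among genes with a mean of at least 50 CPM the shares were 19.7% and 14.3%. Of 29 autophagy genes, 9 rose and 1 fell, with a median log2 fold change of 0.027. Vmp1, a membrane protein of early autophagy, rose by 0.42 (SE 0.0485, edgeR adjusted p = 2.21e-06), the cargo receptor Sqstm1 by 0.28 (SE 0.0471) and Map1lc3b, which marks autophagosomes, by 0.24 (SE 0.0445), while the receptor Tax1bp1 fell by 0.26 on the log2 scale (SE 0.051). Library totals alone gave 4 falls in this list, the fit without EV replicate 1 gave 3, the replicate block, the fit with no filter and the FPKM values gave 2, and the filtered FPKM values gave 5 rises. Of 23 genes of mTORC1, the Rag GTPases and Ragulator, 5 rose: Rragc (0.23), Lamtor4 (0.28), Fnip2 (0.20) and, at under 5 CPM, the mTOR inhibitor Deptor (0.73) and Rragd (0.98). That count was 3 with library totals alone, 1 in the filtered FPKM values, 2 without KO replicates 2 and 3 and 3 without EV replicate 1. Rragd held 119 counts in all libraries together and passed narrowly (SE 0.357, edgeR adjusted p = 0.0495). Deptor, Lamtor4 and Fnip2 lost their calls in the filtered FPKM values (for Deptor limma adjusted p = 0.0635 with a pseudocount of 1 and 0.0598 with 0.1). Mtor itself was at 0.089 (edgeR adjusted p = 0.316).

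Of 12 genes of the mannose 6-phosphate and sortilin routes, which bring new hydrolases to the lysosome, Igf2r (0.24, SE 0.0533, edgeR adjusted p = 0.00203) and the retromer subunit Vps35 (0.15, SE 0.0463, edgeR adjusted p = 0.0246) rose. Vps35 lost its call in the FPKM values, with library totals alone and when EV replicate 1 or either of KO replicates 3 and 4 was left out. M6pr, the smaller receptor, was at 0.067 (edgeR adjusted p = 0.273). Of 10 genes of lysosome fusion and positioning, Plekhm1 (0.26, edgeR adjusted p = 0.00109) and Vps11 (0.15, edgeR adjusted p = 0.0333) rose and Vps16 (−0.17, edgeR adjusted p = 0.037) fell, and of these Plekhm1 alone kept its call in each fit without 1 library. Vps11 lost it when any library other than KO replicate 4 or EV replicate 4 was left out, and Vps16 without KO replicate 1, 2 or 3 or EV replicate 3 or 4. Without EV replicate 1, 2 genes of this list fell. Of all tested genes, 12.6% rose and 13.4% fell. No test was made of whether the members changed more than these lists.

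**Figure D4:**
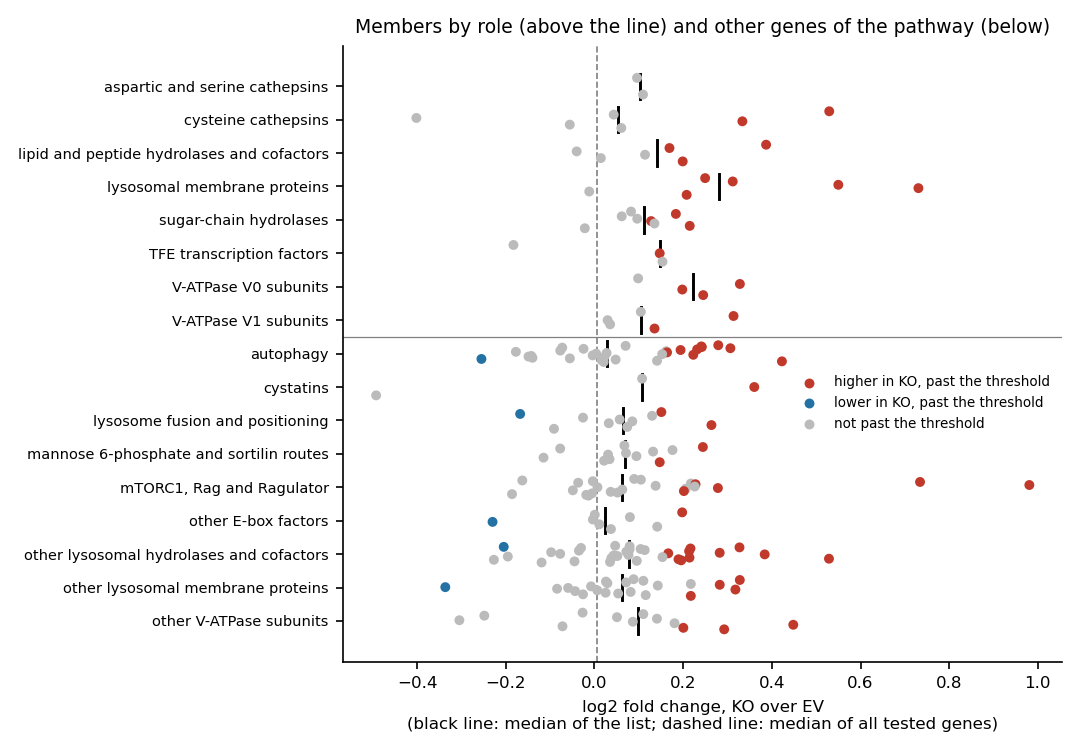
Log2 fold change (KO over EV) of each tested gene, by role for the members (above the line) and by list for other genes of the pathway (below), red where higher and blue where lower at an edgeR adjusted p under 0.05, with the median of each list as a black bar. The bar of the lysosomal membrane proteins, at 0.28, lies furthest right, and no member is blue, whereas 5 of the lower lists hold a blue point each.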

How the data were processed

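RNA was extracted with Trizol and sequenced by a company on an Illumina HiSeq, per the labels' protocols and the series design text. The authors deposited raw counts per gene for 35275 genes, and FPKM values for the same genes, which equal counts per gene length and library total for 100% of nonzero values within 1e-06. The submitters' processing notes name mm10 and DESeq 1.6.3, and the design text an adjusted p of 0.05. No aligner, counter, annotation release or strand setting is given in the sources used here. Of the members, 12 overlap another gene by the deposited coordinates, among them the called Ctsb, Grn, Atp6v0b and Atp6v1b2. Of those not called, Glb1 overlaps Tmppe on the same strand by 10106 bases, with counts of Tmppe at 23.7% of those of Glb1. Ctsa overlaps Pltp on the opposite strand by 1515 bases (10.9%).

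Libraries were grouped by title. Replicates of a group were not duplicates (their counts gave a chi-square over its degrees of freedom of 4.01 to 13.2), but nothing says that they were separate cultures, so p-values measure only the spread between these libraries. Counts of all genes were tested with edgeR 4.0.16 in R 4.3.3 (TMM, filterByExpr with a minimum count of 10, quasi-likelihood F test, two-sided, Benjamini-Hochberg over 12801 genes), after the same code was tested on simulated data. Alternatives were DESeq2 1.42.0, limma-voom (limma 3.58.1), other scalings and filters, limma fits of the FPKM values with pseudocounts of 1 and 0.1 before log2, a block for the replicate number, and fits without each library and without KO replicates 2 and 3. Levels between genes are given in the authors' FPKM, and CPM uses the TMM factors. No correction for multiple lists was made, and counts and medians of lists are descriptions.

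The members and the other lists were chosen with earlier results of these data known. Values in each library are given for members that passed with groups apart and a log2 fold change of at least 0.25, for the TFE factors, the 5 most abundant members and the lowest, and for other members where the overlap of the groups is described, and from each other list up to 4 called genes with the smallest adjusted p. Markers were named from those with counts. Named beyond that rule, after their values were seen, were genes that did not pass or had no counts, given for comparison, and the called Galc and Rragd. Protein sequences were not used here.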

Additional observations from a re-analysis of the deposited data

Results flagged for a closer look

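In 4 of the 80 sets of 4 libraries (40 tested members in each group), 1 library stood far from the other 3 by Dixon's test at its 95% level. At that level about 1 in 20 sets would be flagged by chance. The sets share their libraries and are not independent, and whether chance accounts for these 4 was not tested. Atp6v1b2 was at 439.6 CPM in KO replicate 3, above 403 to 408 CPM in the other KO libraries. Atp6v1a was at 358 CPM in KO replicate 4, below 375 to 376 CPM in the others. Asah1 was at 184 CPM in KO replicate 2, below 205 to 209 CPM in the others. Ctsa was at 574 CPM in EV replicate 2, below 601 to 603 CPM in the other EV libraries.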

How the results depend on the processing

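Library totals alone gave 12 members higher and 2 lower (1039 genes higher), log2(FPKM + 1) 12 and 2 (896 genes higher), log2(FPKM + 0.1) 12 and 2 (897), and log2(FPKM + 1) with no filter 9 members and 766 genes higher. These scalings carry no correction for composition and shift the median of all genes by under 0.1 (log2). Without KO replicates 2 and 3, 880 genes were higher and 1094 lower, and 14 members were higher. With 1 library left out, 13 to 20 members were higher (13 without KO replicate 3) and 0 to 1 lower, and 1239 to 1584 genes higher and 1382 to 1775 lower. The replicate block gave 19 members higher and 1 lower, Ctsh, with 1879 genes higher and 1858 lower, where the main fit gave 1613 and 1711. Deviations from the group mean in same-numbered libraries correlated at 0.143, -0.039, 0.0768 and 0.12. KO replicates 1, 3 and 4 each correlated best with the EV library of their number, and KO replicate 2 with EV replicate 4 (0.0909). The main fit left the numbers out, and whether they mark a shared batch was not tested. Of the 19 calls, 9 held in all 20 alternatives, 3 were lost in 1 and 7 in 4 or more, and 13 held in each fit without 1 library. The cause of these losses was not tested. Members that did not pass turned negative with library totals alone (Ctsf −0.00765, Tpp1 −0.0369, Atp6v1d −0.0219 and Atp6v1e1 −0.0156 on the log2 scale), with log2(FPKM + 1), filtered or not (Ctsf −0.00794, Tpp1 −0.0359, Atp6v1d −0.0204 and Atp6v1e1 −0.0158), and with log2(FPKM + 0.1) (Ctsf −0.00812, Tpp1 −0.0364, Atp6v1d −0.0207 and Atp6v1e1 −0.0159). With 1 library left out, Tpp1 ranged from −0.00803 to 0.0394 (negative without KO replicate 1 or EV replicate 1), Atp6v1d from −0.0163 to 0.0788 (negative without KO replicate 3 or EV replicate 1), Mitf from −0.0442 to 0.324 (negative without KO replicate 2) and Hdac3 from −0.0226 to 0.032 (positive without KO replicate 2 or EV replicate 3). Without KO replicates 2 and 3 the values were −0.00245 for Atp6v1d, −0.0755 for Mitf and 0.0244 for Hdac3. Depth limits Ctsc, Ctsk and Ctss, and the wide errors of Ctsh and Mitf.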
